A study of Mus musculus with 2 samples.

Results

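The cell division genes are a list of 40 mouse genes, named for their known roles in replication and mitosis. All 40 are among the 32285 genes of the count matrices. They form an S set of 19 genes of DNA replication and nucleotide supply (Mcm2 to Mcm7, Pcna, Tyms, Rrm1, Rrm2, Pclaf, Gins2, Cdc6, Cdc45, Tk1, Ung, Uhrf1, Lig1 and Dut) and a G2/M set of 21 genes of mitosis (Mki67, Top2a, Cdk1, Ccnb1, Ccnb2, Ccna2, Birc5, Ube2c, Cenpf, Cenpe, Cenpa, Tpx2, Nusap1, Bub1, Bub1b, Aurka, Aurkb, Plk1, Kif11, Cdc20 and Hmmr). A cell counts as past the limit of a set when it holds at least 5 unique molecular identifiers (UMIs, tags that mark single captured transcripts) of that set. Cells past each limit were counted by library and by cell class.

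The data are single-cell transcriptomes of CD45+ cells, leukocytes that were taken from mouse hearts with antibody-coated magnetic beads. All animals were wild-type C57BL/6J males aged 8 weeks whose left anterior descending coronary artery was closed for 60 min and then reopened for 24 h. One group was given a splenectomy and the other a sham operation, and the comparison asks what removal of the spleen, a store of monocytes, does to the leukocytes of the injured heart. Each group is 1 library, and the sources used here do not say how many hearts went into it. With 1 library each, the groups cannot be tested against each other, and differences below describe these libraries only.

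A dividing cell first builds the machinery of replication, controlled by E2F transcription factors, and later that of mitosis, controlled by the DREAM and MuvB-FOXM1 complexes. Neutrophils leave the bone marrow after their last division, and most monocytes that enter an injured heart are also not in cycle. Resident cardiac macrophages and dendritic cells can divide in the tissue, and dividing macrophages are a known feature of the days after infarction.

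The sham library held 6210 barcodes and the splenectomy library 5087, of which 5838 and 4805 cells were kept, with median depths of 4988 and 7219 UMIs. Ptprc, which encodes CD45, was detected in 79.7% and 79.4% of kept cells. A cell was assigned to a class from the UMIs of fixed marker genes, and classes are written as "-like" because they are ranges of a marker score. Of macrophage-like cells 307 of 1623 (18.9%) and of classical monocyte-like cells 374 of 2495 (15%) lay near the edge of their class, and 823 cells lay between both and were kept apart. The median macrophage-like cell held 293 UMIs of macrophage markers, 14 of monocyte markers and 4 of neutrophil markers. Classical monocyte-like cells were less clearly set apart, with medians of 75 UMIs of monocyte markers, 49 of macrophage markers and 10 of neutrophil markers. Cells called doublets were removed (302 and 200), and 9 barcodes occurred in both libraries. Brackets hold exact 95% intervals, which cover counting error alone.

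Stretches of the promoters of 7 members are printed first, because they hold the motifs searched, which occurred at different rates in the S set and the G2/M set. RefSeq start sites on GRCm38.p6 (mm10) were found for 35 of the 40 members, and Mcm4, Gins2, Ccna2, Tpx2 and Aurkb were not matched. An E2F motif (TTTCCCGC, TTTCGCGC, TTTGCCGC or TTTGGCGC, either strand) occurred in the 300 bases around the start site of 8 of 17 matched S set genes, namely Mcm3, Mcm5, Mcm6, Mcm7, Pclaf, Cdc6, Uhrf1 and Lig1. It occurred in 1 of 18 G2/M set genes, Cdk1, and in 2.26% of 32851 promoters. A gene counted if any of its promoters held a motif, while the shares over all promoters count each promoter. Mcm7 and Uhrf1 held the E2F motif in 1 of 2 promoters and Lig1 in 1 of 3. The cell cycle genes homology region, or CHR (TTTGAA or TTCGAA, either strand), occurred in 14 of 18 G2/M set genes, in 3 of 17 S set genes (Mcm2, Mcm7 and Cdc45) and in 19.2% of all promoters. A CCAAT box (CCAAT, either strand) occurred together with it in the same 14 and 3 members and in 7.52% of all promoters, and a CCAAT box at all in 16 and 11 members and in 37.4%. Birc5, Ccnb1, Cenpe and Nusap1 were the matched G2/M set genes without these CHR letters. Mcm7 and Cdk1 held both the E2F motif and the CHR, and Pcna, Tyms, Rrm1, Rrm2, Tk1, Ung and Dut held neither. A match is a description of the letters only. The stretches below lie before the RefSeq start site, outside exons of GENCODE vM21, though that of Cdc6 lies inside the gene as GENCODE bounds it. For 27 of the 35 genes the bases after the RefSeq start were also found in the first 1000 bases of a GENCODE transcript. The stretches are written 5′ to 3′ on the strand of the gene, with matches of the E2F motif, the CHR and the CCAAT box in capitals.
Mcm5: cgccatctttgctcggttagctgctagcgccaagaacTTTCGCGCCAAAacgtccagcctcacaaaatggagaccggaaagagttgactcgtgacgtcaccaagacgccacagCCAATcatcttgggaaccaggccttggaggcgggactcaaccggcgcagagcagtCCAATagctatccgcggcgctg
Mcm6: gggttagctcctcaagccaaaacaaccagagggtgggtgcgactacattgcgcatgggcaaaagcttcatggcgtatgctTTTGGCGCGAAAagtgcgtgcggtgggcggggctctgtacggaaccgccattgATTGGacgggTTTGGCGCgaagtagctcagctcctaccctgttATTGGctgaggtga
Cdc6: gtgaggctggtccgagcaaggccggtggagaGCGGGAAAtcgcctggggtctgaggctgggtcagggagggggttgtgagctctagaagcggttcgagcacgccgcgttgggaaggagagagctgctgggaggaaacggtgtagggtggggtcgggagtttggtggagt
These are the S set examples, at chr8:75109319-75109508 (+ strand, Mcm5), chr1:128359706-128359895 (- strand, Mcm6), chr11:98907982-98908150 (+ strand, Cdc6). Mcm5 and Mcm6 each hold 2 E2F matches that overlap on opposite strands and 2 CCAAT boxes, Mcm6 holds an E2F match more, and Cdc6 holds 1 E2F match and neither of the other motifs.
Mki67: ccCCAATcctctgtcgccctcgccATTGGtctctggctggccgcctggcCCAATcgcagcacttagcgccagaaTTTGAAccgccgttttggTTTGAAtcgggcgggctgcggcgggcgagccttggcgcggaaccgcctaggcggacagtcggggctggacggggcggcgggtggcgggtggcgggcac
Top2a: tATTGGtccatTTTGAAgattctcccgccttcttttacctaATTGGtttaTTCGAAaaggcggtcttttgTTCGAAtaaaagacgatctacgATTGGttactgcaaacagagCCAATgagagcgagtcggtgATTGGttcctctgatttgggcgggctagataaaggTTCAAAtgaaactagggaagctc
Cdk1: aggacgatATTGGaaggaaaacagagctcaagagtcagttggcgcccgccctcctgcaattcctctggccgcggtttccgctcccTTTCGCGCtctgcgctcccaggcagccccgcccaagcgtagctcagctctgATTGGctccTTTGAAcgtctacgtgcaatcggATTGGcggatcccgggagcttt
Cdc20: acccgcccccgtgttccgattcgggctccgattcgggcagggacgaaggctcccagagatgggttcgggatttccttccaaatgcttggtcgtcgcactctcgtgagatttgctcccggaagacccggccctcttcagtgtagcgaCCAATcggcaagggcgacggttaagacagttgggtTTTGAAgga
These are the G2/M set examples, at chr7:135716380-135716569 (- strand, Mki67), chr11:99024190-99024379 (- strand, Top2a), chr10:69352939-69353128 (- strand, Cdk1), chr4:118437353-118437542 (- strand, Cdc20). Top2a holds 4 CHR matches and 5 CCAAT boxes, Mki67 holds 2 and 3, and Cdc20 holds 1 of each. Cdk1 holds the CHR, 3 CCAAT boxes and an E2F match in the same stretch.

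Replication genes were far more widespread than mitosis genes, and the number of cells past either limit was small. In the sham library 588 of 5838 cells (10.1% [9.31 to 10.9]) were past the S limit and in the splenectomy library 420 of 4805 (8.74% [7.96 to 9.58]). Past the G2/M limit were 109 cells (1.87% [1.54 to 2.25]) and 97 cells (2.02% [1.64 to 2.46]). Both limits together were passed by 55 and 43 cells, so that about as many G2/M cells were also past the S limit as were not (54 in each library). Just outside the limit, 310 and 233 cells held 4 UMIs of the S set and 88 and 59 held 4 of the G2/M set, and just inside it 179 and 145 held 5 of the S set and 40 and 35 held 5 of the G2/M set.

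Depth moved with these numbers. Cells past the S limit had median depths of 18239.5 and 19212.5 UMIs, against 4281.5 and 5824 in the other cells, and cells past the G2/M limit had 16478 and 17408 against 4864 and 6879. When every cell was thinned to 4000 UMIs, which left 3361 and 3241 cells, 78 (2.32% [1.84 to 2.89]) and 57 (1.76% [1.33 to 2.27]) were past the S limit, 24 (0.714%) and 19 (0.586%) past the G2/M limit, and 19 and 9 past both. The S share was therefore lower in the splenectomy library at both depths, with intervals that overlapped, and the order of the G2/M shares turned.

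A single gene often carried a cell past the limit. Pcna (chromosome 2, 132249162 to 132253314), the sliding clamp of DNA polymerases, which also serves in DNA repair, gave 44.0% and 45.3% of the UMIs of the S set. Cenpa (chromosome 5, 30666777 to 30674830), the histone H3 variant of centromeres, gave 37.2% and 36.0% of those of the G2/M set. Of the cells past the S limit 150 of 588 and 123 of 420 held only 1 or 2 S set genes, led by Pcna in 143 and 121 of them. Of those past the G2/M limit 53 of 109 and 51 of 97 held only 1 or 2, led by Cenpa in 43 and 38.

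A stricter count, added after the data were seen, asked for UMIs of 5 different members of a set. It left 214 cells (3.67%) and 141 (2.93%) for the S set and 35 (0.60%) and 29 (0.604%) for the G2/M set. Of the cells with a broad mitosis program 30 of 35 and 21 of 29 also met the rule for the S set, while 184 and 120 cells met it for the S set alone. In the plot of member UMIs per cell, the cells that met both rules lie up and to the right of both limits. Those that met the rule for the S set alone lie to the right of the S limit. An example is a sham macrophage-like cell with 77 S and 7 G2/M UMIs.

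**Figure D1:**
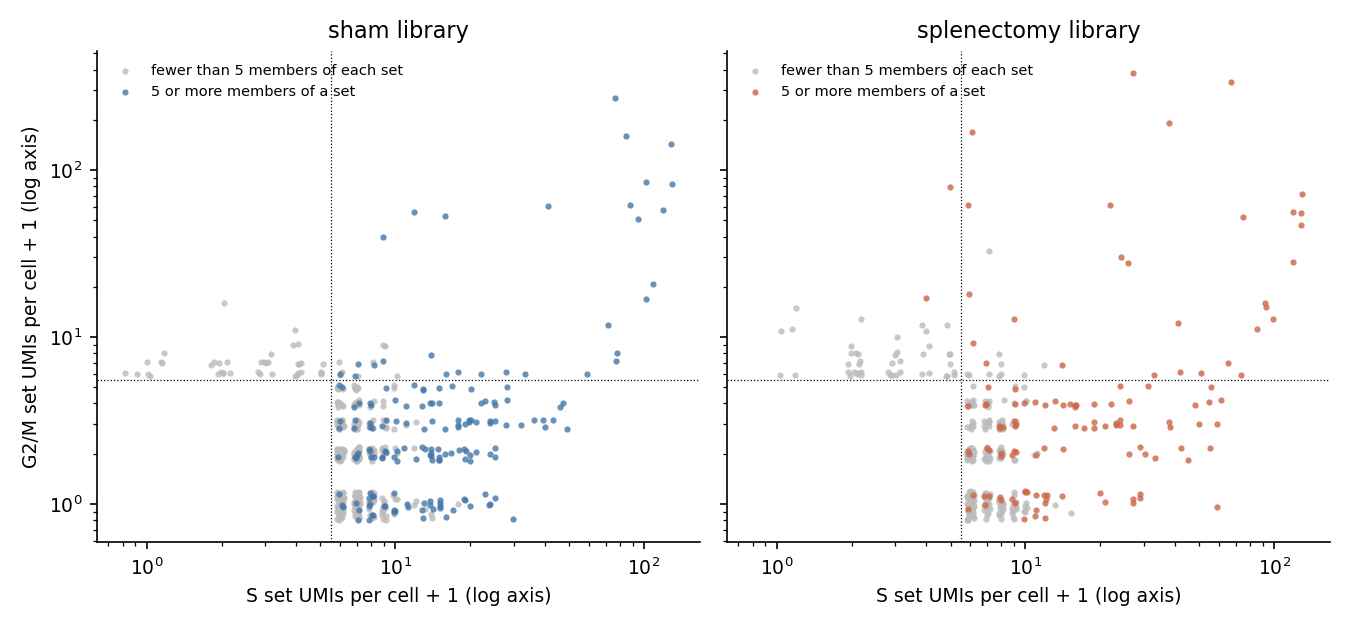
UMIs of the S set (horizontal, log axis) against UMIs of the G2/M set (vertical, log axis) for each cell past either limit, with small random offsets, in the sham library (left) and the splenectomy library (right). Dotted lines mark the limits of 5 UMIs, and coloured points are cells with 5 or more different members of a set: the cells with the most G2/M UMIs are all coloured, while most points near the limits are grey.

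How closely each gene kept to such cells was measured as the share of its UMIs that lay in cells with at least 5 other members of its set. Among genes of helicase loading and start, Cdc6, which loads the MCM ring, had 39.0% of its UMIs there over both libraries, Mcm4 35.8%, Mcm3 50.2%, Mcm6 55.5%, Mcm2 57.6%, Mcm7 62.3% and Mcm5 64.7%. Cdc45 and Gins2, which turn the ring into the active helicase, had 63.4% and 42.2%. The share therefore differed within 1 complex, although the MCM proteins work as a ring with 1 copy of each.

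At the clamp the contrast was widest. Pcna had 14.1% of its 10091 UMIs in such cells and was detected in 2549 and 2156 cells. Pclaf (chromosome 9, 65890237 to 65903266), a small protein that binds the clamp, had 94.3% of its 807 UMIs there and was detected in 66 and 46 cells, with up to 50 UMIs in 1 cell. Few UMIs of Pclaf lay outside cells with the broad program, whereas most of those of Pcna did.

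Genes of nucleotide supply split in the same way. Rrm2, the regulated subunit of ribonucleotide reductase, had 76.5% of its UMIs in such cells and its partner Rrm1 had 37.7%. Thymidine kinase Tk1 had 80.2%, the dUTPase Dut 61.2% and thymidylate synthase Tyms 43.4%. Of the genes that finish and mark the new strand, Uhrf1, which carries DNA methylation over to it, had 73.0%, the uracil glycosylase Ung 64.3% and DNA ligase Lig1 50.8%.

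In the G2/M set the lowest shares were those of Cenpa (6.97%, detected in 1142 and 957 cells), Aurka, a kinase of the spindle poles (11.4%), and Bub1b, a kinase-like protein of the spindle checkpoint (27.4%). Cyclins and their kinase lay at 42.6% for Ccnb1, 60.4% for Cdk1, 76.1% for Ccnb2 and 90.2% for Ccna2. Of the proteins on chromosomes, the surface factor Mki67 had 44.5%, topoisomerase Top2a 65.6%, and the kinetochore proteins Cenpe and Cenpf 64.8% and 92.1%. Aurkb and Birc5, which act together in the chromosomal passenger complex, had 48.2% and 89.2%.

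The motor Kif11 lay at 86.5%, the microtubule binders Hmmr and Nusap1 at 86.7% and 87.7%, and the spindle assembly factor Tpx2 at 64.7%. Checkpoint and exit genes ranged from Cdc20, an activator of the anaphase-promoting complex, at 51.8% through Bub1 at 67.1% and the kinase Plk1 at 72.2% to Ube2c, the ubiquitin-conjugating enzyme of that complex, at 86.9%. The plot of these shares shows both libraries in much the same order. These shares rest on 54 UMIs for Plk1 and 76 for Bub1, and on 3646 for Cenpa.

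**Figure D2:**
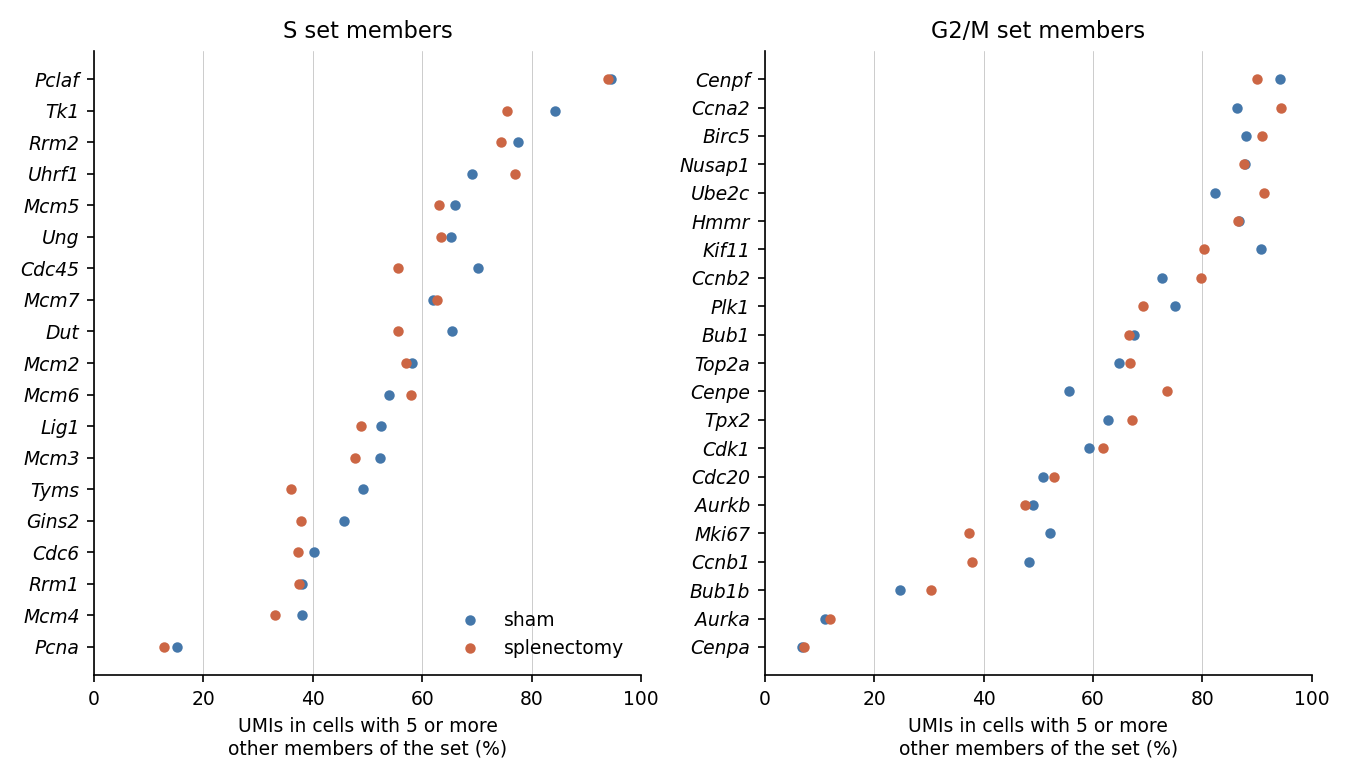
Share of each gene's UMIs that lay in cells with 5 or more other members of the same set (percent), for the S set (left) and the G2/M set (right), with 1 point per library. Pcna and Cenpa lie lowest and Pclaf and Cenpf highest in their sets over both libraries.

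Birc5, Top2a and Mki67 were among the G2/M set genes found in most of the 35 sham and 29 splenectomy cells with 5 or more G2/M members. Birc5 (chromosome 11, 117849251 to 117855743), an inhibitor-of-apoptosis protein of the passenger complex, was detected in 33 and 22 of them. Top2a was detected in 32 and 25, Mki67 in 30 and 25, and Pcna in 34 and 24. Plk1 was detected in only 10 and 10. These cells were chosen by the same G2/M set genes, which raises the counts of those genes by construction. Of cells with at least 5 other G2/M members, Birc5 was detected in 93.3% (sham) and 73.1% (splenectomy). In the same order Top2a was detected in 89.7% and 84.6%, Mki67 in 83.3% and 85.2%, and Plk1 in 28.6% and 32.1%.

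Of the classes with at least 20 cells in each library, cDC1-like cells had the highest share past each limit. Their class is named for the dendritic cells that cross-present antigen. Macrophage-like cells gave the most cells past the S limit and classical monocyte-like cells the most past the G2/M limit. With 5 different G2/M members that last order turned, at 27 macrophage-like and 4 classical monocyte-like cells over both libraries. Clustering placed such cells otherwise. A cluster led by Ccl17 and Cd209a, of which 32.7% were cDC2-like by markers, held 16 sham and 5 splenectomy cells with 5 G2/M members. The macrophage-like cluster led by Lyve1 and Fcna held 8 and 18, so this order depends on how the classes are set. Of 27 cDC1-like cells in each library, 14 sham cells (51.9% [31.9 to 71.3]) and 11 splenectomy cells (40.7% [22.4 to 61.2]) were past the S limit. In each library 6 of them (22.2% [8.62 to 42.3]) were past the G2/M limit. After thinning, 5 of 24 and 5 of 26 remained past the S limit. Within the class 5 cells held 95.4% and 92.4% of the G2/M UMIs other than Cenpa, so the level of the class is that of a few cells.

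Macrophage-like cells numbered 891 and 732, at median depths of 12699 and 13798 UMIs. Past the S limit were 227 sham cells (25.5% [22.6 to 28.5]) and 186 splenectomy cells (25.4% [22.3 to 28.7]), which are close. Past the G2/M limit were 20 (2.24% [1.38 to 3.45]) and 28 (3.83% [2.56 to 5.48]). With 5 different G2/M members the counts were 8 (0.898% [0.388 to 1.76]) and 19 (2.60% [1.57 to 4.02]), and after thinning 4 of 744 (0.538%) and 10 of 638 (1.57%). The G2/M share was the higher one in the splenectomy library under each of these rules, and the intervals overlapped in each.

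Classical monocyte-like cells numbered 1251 and 1244, at nearly equal median depths of 12763 and 12575.5 UMIs. Past the S limit were 137 (11% [9.27 to 12.8]) and 101 (8.12% [6.66 to 9.78]), and past the G2/M limit 25 (2.0% [1.30 to 2.94]) and 32 (2.57% [1.77 to 3.61]). Most of these did not carry the broad program: with 5 different members the counts were 26 and 14 for the S set and 3 and 1 for the G2/M set. The S share was lower in the splenectomy library by each rule, and after thinning it came to 11 of 1160 (0.948%) and 5 of 1165 (0.429%). Cells between monocyte and macrophage were past the S limit in 93 of 448 (20.8%) and 59 of 375 (15.7%), and past the G2/M limit in 10 and 8.

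cDC2-like cells, the dendritic cells that present antigen to helper T cells, were past the S limit in 24 of 97 (24.7% [16.5 to 34.5]) and 8 of 89 (8.99% [3.96 to 16.9]). After thinning the order turned, with 3 of 86 and 4 of 88, so no order is read from this class. With 5 different S set members the counts were 17 (17.5%) and 7 (7.87%). Past the G2/M limit were 13 (13.4%) and 7 (7.87%), of which 7 and 3 held only 1 or 2 members, led by Cenpa, and 2 and 1 held 5 or more. In neutrophil-like cells 11 of 2222 (0.495%) and 4 of 1564 (0.256%) were past the S limit and 4 (0.180%) and 4 (0.256%) past the G2/M limit. Their median depths were 3323 and 3766 UMIs. In cells thinned to 4000 UMIs 2 of 593 (0.337% [0.0409 to 1.21]) and 0 of 644, which allows up to 0.466%, were past the S limit, and 1 of 593 and 3 of 644 past the G2/M limit. At that depth the S interval of the sham library overlapped that of classical monocyte-like cells (0.474 to 1.69), and the pooled G2/M share was 0.323% against 0.172% in those. None of the 8 neutrophil-like cells past the G2/M limit held more than 1 G2/M gene. Mki67 alone, at 5 to 14 UMIs, put 7 of them there, Ube2c at 5 UMIs put the other 1 there, and none held Top2a. The plot of shares by class shows this order.

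**Figure D3:**
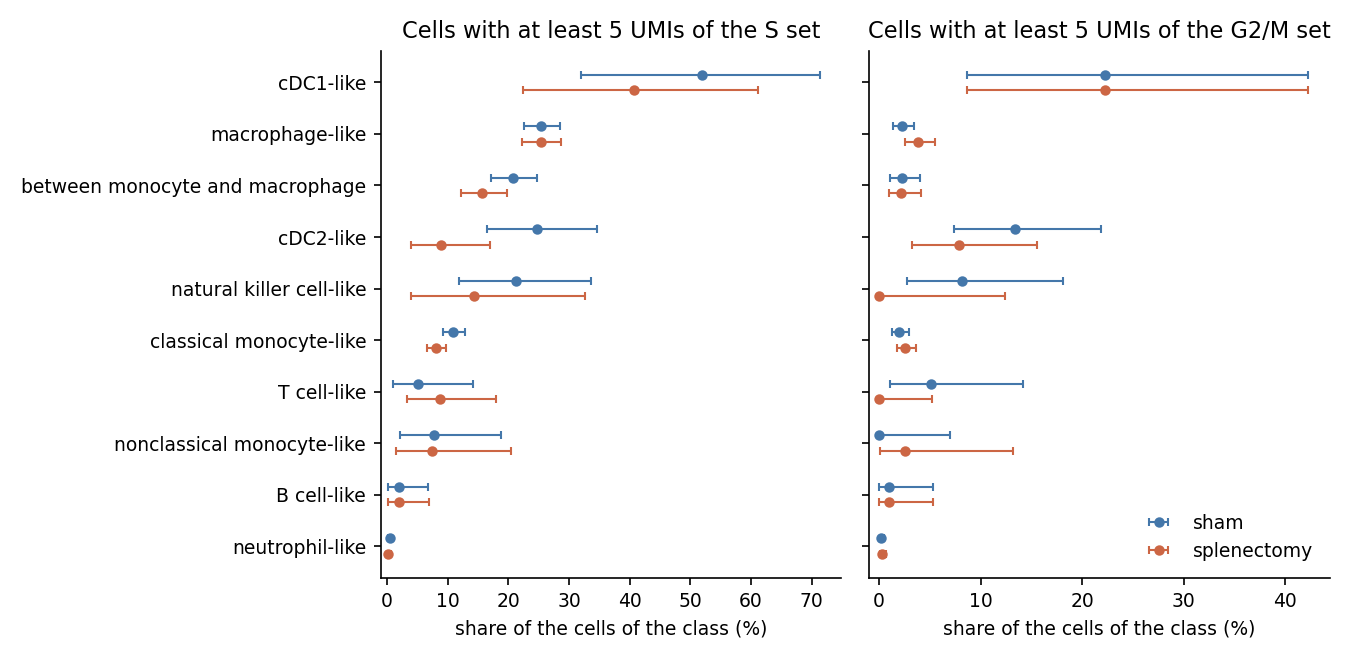
Share of the cells of each class past the S limit (left) and the G2/M limit (right), in percent, with exact 95% intervals for counting error, in the sham and splenectomy libraries. cDC1-like cells lie highest in both panels, from 27 cells a library, and neutrophil-like cells lie near 0.

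Mki67 (chromosome 7, 135689784 to 135716361), the gene of the Ki-67 antigen used to count dividing cells, was detected in a larger share of the cells of the splenectomy library, which was also the deeper one (medians of 7219 against 4988 UMIs). It was found in 220 of 5838 cells (3.77% [3.29 to 4.29]) against 268 of 4805 (5.58% [4.95 to 6.26]). In macrophage-like cells the shares were 6.85% [5.28 to 8.71] and 9.97% [7.90 to 12.4], in classical monocyte-like cells 3.92% [2.91 to 5.15] and 6.91% [5.57 to 8.47], and in cells between them 2.46% [1.23 to 4.35] and 8.80% [6.13 to 12.1]. cDC2-like cells went the other way, with 22.7% [14.8 to 32.3] and 12.4% [6.33 to 21]. So did Top2a over all cells, found in 171 of 5838 and 124 of 4805, and in classical monocyte-like cells, in 42 of 1251 and 30 of 1244. In macrophage-like cells Top2a did not, with 46 of 891 and 41 of 732. Of the cells with at least 5 UMIs of Mki67, 18 of 22 and 18 of 26 also held Top2a, and 4 and 7 held no other G2/M member except Cenpa.

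The level of each member was the sum of its UMIs over the cells of a class scaled to 1000000 UMIs of that class (CPM). To count as higher or lower in the splenectomy library, a gene had to differ at least 1.5-fold, with at least 20 UMIs in the higher library. By this rule the mitosis genes were higher in macrophage-like cells and lower in classical monocyte-like cells of the splenectomy library. In macrophage-like cells 18 of 20 measured G2/M set genes were higher and 0 lower, with a median log2 ratio of 1.32. Over all 10320 genes measured there 4.36% were higher and 4.14% lower (median -0.02). Of the 19 S set genes 4 were higher and 0 lower, at a median of 0.25. Fewer dividing cells and less RNA in each cannot be told apart in such sums.

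Among the cyclins and their kinase, Ccna2 had 15 sham UMIs and 58 splenectomy UMIs (log2 ratio 2.14 [1.31 to 3.07]), Ccnb2 had 19 and 63 (1.92), Ccnb1 20 and 38 (1.12) and Cdk1 63 and 97 (0.82 [0.34 to 1.30]). Of the kinases and the passenger complex, Birc5 had 53 and 140 (1.59 [1.13 to 2.08]) and Aurkb 24 and 53 (1.34), while Aurka had 39 and 31 (-0.14) and was within 1.5-fold. Plk1, at 3 and 18 UMIs, was below the minimum. All 4 genes of cyclins and their kinase were thus higher.

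Of the genes on chromosomes, Mki67 stood at 12.0 CPM (145 UMIs) and 24.9 CPM (263 UMIs), with a log2 ratio of 1.05 [0.75 to 1.36], and Top2a at 115 and 168 UMIs (0.74 [0.39 to 1.10]). Cenpf (chromosome 1, 189640606 to 189688086), a kinetochore protein made in late G2, had the largest ratio of the set, from 6 to 76 UMIs (3.86 [2.67 to 5.35]), and Cenpe had 20 and 58 (1.73). Cenpa had 344 and 290 UMIs, 28.4 and 27.4 CPM, and was within 1.5-fold (-0.05 [-0.28 to 0.18]). Cenpe and Cenpf, with most of their UMIs in cells of the broad program, were higher, and the widespread Cenpa was level.

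Also higher were Tpx2 with 38 and 89 UMIs (1.42), Nusap1 with 22 and 65 (1.76), Kif11 with 17 and 36 (1.28) and Hmmr with 21 and 44 (1.26). So were those of checkpoint and exit, with Bub1 at 11 and 24 (1.32), Bub1b at 26 and 42 (0.89), Cdc20 at 15 and 33 (1.33) and Ube2c at 36 and 193 (2.62 [2.10 to 3.17]). Ube2c (chromosome 2, 164769898 to 164778822) was detected in only 34 cells of the whole splenectomy library, with up to 59 UMIs in 1 of them.

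In the S set the genes counted as higher in macrophage-like cells were Rrm2 with 16 and 39 UMIs (1.48 [0.61 to 2.42]), Uhrf1 with 36 and 70 (1.15), Pclaf with 65 and 118 (1.05 [0.60 to 1.51]) and Cdc45 with 19 and 31 (0.90). Pclaf, Rrm2 and Uhrf1 were, with Tk1, the 4 S set genes that kept most to cells with the broad program. Pcna was level at 128 and 130 CPM (0.02 [-0.09 to 0.12]). The 6 MCM genes lay between -0.02 for Mcm6 and 0.24 for Mcm7, and the other genes between 0.19 for Cdc6 and 0.57 for Tk1.

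In classical monocyte-like cells 8 of 13 measured G2/M set genes were lower in the splenectomy library and 0 higher, with a median log2 ratio of -1.39. Over all 10113 genes measured there 5.58% were lower and 3.92% higher. Birc5 had 62 sham UMIs and 3 splenectomy UMIs (-4.37 [-6.69 to -2.76]), Ube2c 100 and 7 (-3.84 [-5.19 to -2.74]) and Top2a 102 and 39 (-1.39 [-1.96 to -0.84]). Ccnb2 (24 and 4), Cenpe (23 and 5), Nusap1 (26 and 7), Tpx2 (27 and 9) and Cdk1 (43 and 21) were the others. Mki67 was not among them, at 91 and 129 UMIs (0.50 [0.10 to 0.91]), nor were Cenpa (747 and 671), Bub1b (44 and 40), Aurka (66 and 68) and Aurkb (22 and 22). Of 15 S set genes 5 were lower and 0 higher: Pclaf with 82 and 9 UMIs (-3.19), Cdc6 with 22 and 10, Rrm2 with 28 and 13, Mcm7 with 86 and 43 (-1.0) and Mcm6 with 109 and 66 (-0.73).

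**Figure D4:**
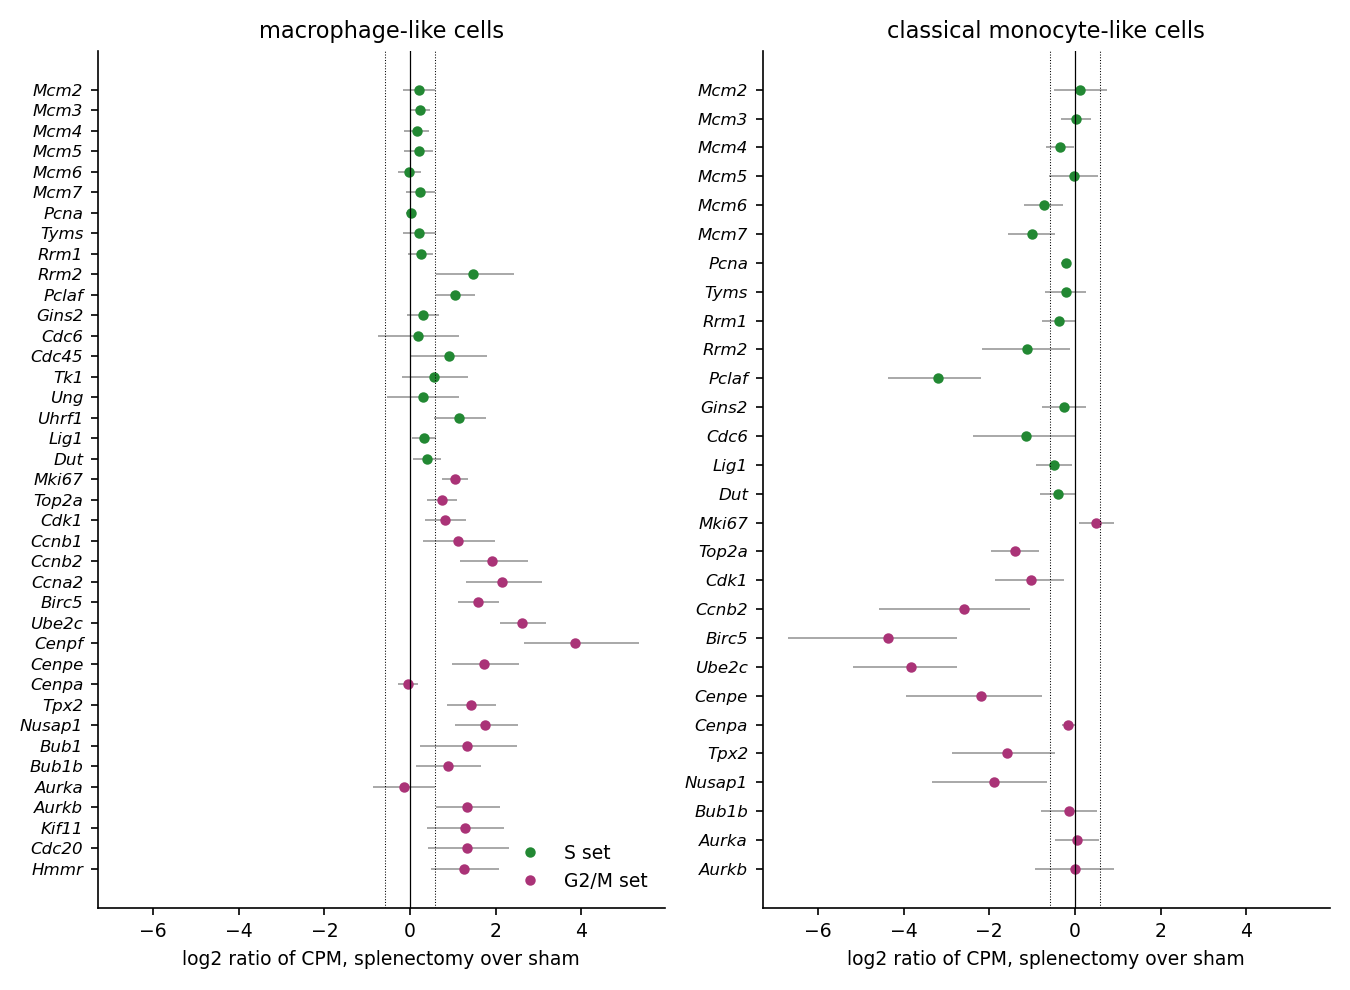
Log2 ratio of CPM, splenectomy over sham, for each measured member in macrophage-like cells (left) and classical monocyte-like cells (right), with exact 95% intervals for counting error. Dotted lines mark 1.5-fold: most G2/M set genes lie to the right of them on the left panel and to the left of them on the right panel, while Pcna and Cenpa lie near 0 in both.

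A few cells carried these levels in both classes. The 5 macrophage-like cells with the most member UMIs held 37.9% of the G2/M UMIs other than Cenpa in the sham library and 60.7% after splenectomy. The 5 such classical monocyte-like cells held 55.7% (sham) and 4.94% (splenectomy). Single macrophage-like cells of the splenectomy library reached 380, 335 and 189 G2/M UMIs from 21, 21 and 20 members, against a highest value of 143 in the sham library.

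The 3 highest of these held 425, 546 and 398 UMIs of macrophage markers and 58, 31 and 18 of monocyte markers, and clustering without the members and the other division genes put all 3 in the cluster led by Lyve1 and Fcna, genes of resident macrophages. The fourth, with a score ratio of 1.84 to the next class, lay in a cluster without a name, and the fifth had a ratio of 1.64. When the 5 highest cells of each library were left out, the median of the G2/M set in macrophage-like cells was 0.60. Of 11 measured genes 6 were then higher and 1 lower, against 4.05% and 4.32% of all genes.

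Among classical monocyte-like cells the same step took the G2/M median from -1.39 to 0.036. It left 0 genes lower and 1 higher, against 5.34% and 3.96% of all genes. The 3 highest sham cells of this class, with 271, 84 and 82 G2/M UMIs from 21, 18 and 18 members, were also placed elsewhere by the clustering. It put all 3 in a cluster led by Ccl17, Cd209a, Klrd1 and Flt3, genes of cDC2. Of the 559 cells of that cluster 183 (32.7%) were cDC2-like by markers. In the same order the 3 cells held 226, 111 and 14 UMIs of monocyte markers and 93, 17 and 36 of macrophage markers. Their next classes were granulocyte-monocyte precursor, the same again and fibroblast. With classes set by clusters the median in classical monocyte-like cells was -0.12, with 1 gene lower and 1 higher. Cells of this class with 5 or more members also lay nearer to other classes, with a median score ratio to the next class of 1.59 in the sham library against 2.23 in the other cells, and 1.56 against 2.37 in the splenectomy library.

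When the cells with 5 or more members were left out, which lowers the level by construction, the G2/M set was low in the larger classes. In the other macrophage-like cells the G2/M genes without Cenpa summed to 21.8 and 20.1 CPM, in the other classical monocyte-like cells to 19.8 and 22.5, and in the other neutrophil-like cells to 18.0 and 20.6, while the other cDC1-like cells were at 44.2 and 40.03 and the other cDC2-like cells at 53.5 and 27.7. The S set without Pcna stood at 81.9 and 74.7 CPM in the other macrophage-like cells, 52.6 and 45.9 in the other classical monocyte-like cells and 18.3 and 16.0 in the other neutrophil-like cells. Cells with 5 or more members held 69.4% and 89.2% of the G2/M UMIs other than Cenpa among macrophage-like cells, from 91 and 81 cells.

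In the smaller classes the counts of higher and lower genes were read against wider backgrounds. In cDC1-like cells 1 of 12 S set genes was higher and 2 lower, and 1 of 6 G2/M set genes higher, where 10.1% of all measured genes were higher and 9.92% lower. In cDC2-like cells 1 of 9 S set genes was higher and 4 lower, and 1 of 3 G2/M set genes each way, where 7.45% were higher and 7.51% lower. In neutrophil-like cells 0 of 4 S set genes were higher and 1 lower, and 1 of 3 G2/M set genes each way, where 4.96% were higher and 9.84% lower.

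Other genes of division, on lists outside the 40 members, were counted in the same way. Their sums in each class include the same few cells with the most member UMIs. These lists were not counted without those cells. In macrophage-like cells 26 of 46 other mitosis genes were higher in the splenectomy library, against 4.36% of all genes, and 1, Psrc1 (30 and 14 UMIs), was lower (median log2 ratio 0.82). The largest ratios were those of Aspm, a spindle pole protein (8 and 37 UMIs, 2.40), the kinesin Kif4 (7 and 26, 2.09), Cep55, which acts in abscission (8 and 29, 2.05), Kif20b (15 and 50, 1.93) and the midzone protein Prc1 (26 and 76, 1.74 [1.08 to 2.44]). Of 34 other replication genes 5 were higher and 0 lower, among them the checkpoint mediator Clspn (23 and 41, 1.03) and the primase Prim1 (57 and 79, 0.66).

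Among classical monocyte-like cells 10 of 26 other mitosis genes were lower, among them Cdca3 (28 and 4 UMIs, -2.81) and Cdca8 of the passenger complex (60 and 24, -1.32), and 2 were higher, Cenpk and Ckap2l. Of 30 other replication genes 6 were lower and 0 higher, among them the origin protein Orc1 (24 and 9, -1.42) and the licensing factor Cdt1 (168 and 96, -0.81 [-1.19 to -0.44]). Of the regulators of G1 and E2F 2 were higher and 1 lower of 30 in macrophage-like cells, against 4.36% and 4.14% of all genes, and in classical monocyte-like cells 2 were higher and 4 lower of 28, against 3.92% and 5.58% of all genes. There Ccnd1, the cyclin of early G1, had 868 UMIs in 331 cells of the sham library and 334 in 146 cells of the splenectomy library (-1.38 [-1.57 to -1.20]), and Ccnd2 had 1123 and 652 (-0.79 [-0.93 to -0.65]) in 403 and 234 cells.

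Among the brakes on division, Gadd45a, a stress gene that slows entry to mitosis, was higher in the splenectomy library in both classes, with 177 and 279 UMIs in macrophage-like cells (0.85 [0.57 to 1.13]) and 420 and 1063 in classical monocyte-like cells (1.34 [1.17 to 1.5]). In macrophage-like cells Cdkn2b, an inhibitor of the cyclin D kinases, had 15 and 30 UMIs (1.19), and its neighbour Cdkn2a had 141 and 71 (-0.80 [-1.23 to -0.37]). Of the brakes 2 of 21 were higher and 1 lower in macrophage-like cells, and 2 of 19 higher and 0 lower in classical monocyte-like cells, counts near the shares of all genes given above. Of the growth drivers of macrophages 1 of 11, the growth factor Csf1 (107 and 144 UMIs, 0.62), was higher in macrophage-like cells, and 0 of 11 in classical monocyte-like cells.

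Within a library, macrophage-like cells with 5 or more members of a set were set beside the other macrophage-like cells. Of 24 G1 and E2F regulators with enough UMIs, 8 were at least 1.5-fold higher in these cells in both libraries and 0 lower, namely Ccnd1, E2f1, Tfdp1, Rbl1, Lin9, Cdc25a, Cdc25b and Pkmyt1. Of 20 brakes 0 were higher and 3 lower in both (Cdkn1c, Btg1 and Btg2), and of 11 growth drivers 0 were either. Over all 9402 genes with enough UMIs 3.45% were higher and 2.13% lower in both libraries. The genes given with values here were chosen after their values were seen. Ccnd1 stood at 250 against 102 CPM in the sham library (1.29 [1.14 to 1.44]) and 172 against 77.8 in the splenectomy library (1.14 [0.95 to 1.33]). E2f1 stood at 24.4 against 11.6 and at 41.3 against 11.4 CPM, and its partner Tfdp1 at 33.8 against 13.1 and 32.6 against 15.8. Pkmyt1, a kinase that holds Cdk1 inactive, had 26 of its 34 and 31 of its 36 UMIs in these cells.

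Cdkn1a, the p21 inhibitor of cyclin-dependent kinases, stood in them at 751 against 1248 CPM (-0.73 [-0.81 to -0.66]) and 726 against 1035 (-0.51 [-0.59 to -0.43]). Btg1, an antiproliferative gene, stood at 492 against 761 and 427 against 743 CPM. Cdkn2c, a brake of the cyclin D kinases, was level in the sham library (12 and 59 UMIs, -0.07) and higher in them in the splenectomy library (40 and 46 UMIs, 1.85 [1.20 to 2.49]). Csf1r, the receptor of the main macrophage growth factor, was level at 294 against 307 and 303 against 314. The cells with 5 or more members were deeper, at medians of 22356 against 11962.5 and 25656 against 12918 UMIs, and the part of depth in these values was not tested.

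The same comparison over all genes outside the lists, for macrophage-like cells past either limit (230 of 891 and 193 of 732), was led by histone genes. Hist1h1b, a linker histone, had 52 UMIs in cells past a limit and 5 in the others in the sham library (4.0 [2.68 to 5.68]) and 96 and 4 in the splenectomy library (5.21 [3.80 to 7.11]). Hist1h2ap (2.94 and 3.97), Hist1h2ae (2.85 and 3.49) and Hist1h4d (1.33 and 1.67) were also among the 15 highest, although replication-dependent histone transcripts mostly lack the poly(A) tail that this assay captures. Stmn1, which destabilises microtubules, stood at 71.9 against 20.1 and 140 against 16.4 CPM. Chromatin and replication genes followed, with Topbp1 (0.98 and 1.23), Ezh2 (0.92 and 1.31), Cbx5 (0.99 and 0.90) and the nuclear envelope gene Nrm (0.92 and 0.97). The purine synthesis gene Ppat (1.10 and 0.93) and the glycosylation gene Alg8 (1.04 and 1.35) were there as well.

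The other 4 of the highest genes act in immunity and lipid metabolism. They were Cd209f, a C-type lectin (4.30 and 2.74), Ear2, an eosinophil-associated ribonuclease (2.13 and 2.04), the chemokine Ccl8 and Ch25h, a cholesterol hydroxylase (1.16 and 0.96). Ccl8, a marker of resident macrophages, stood at 269 against 110 CPM in the sham library (1.29 [1.16 to 1.42]) and 279 against 111 in the splenectomy library (1.32 [1.19 to 1.46]). Lyve1 and Timd4, also of the resident list, did not go with it in both libraries. Lyve1 was at 92.5 against 154 CPM in the sham library and 227 against 208 in the splenectomy library. Timd4 was at 13 against 24.3 and 18.7 against 25.3. Summed, the resident list differed by 0.04 and 0.23 and the list of recruited macrophages by 0.07 and 0.02. By the rule of 5 or more members, Igf1 (0.38 and 0.58) and Maf (0.17 and 0.22) of the resident list were higher, but within 1.5-fold. A tie of the broad program to residency was not tested.

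The lowest genes were Cd74, of antigen presentation, and a mixed group. Cd74, the invariant chain of MHC class II, was at -1.36 and -0.84, and the MHC class II list summed to -1.48 and -0.79. Tmem176b (-1.49 and -0.87), Txnip (-0.86 and -0.86), Serpinf1 (-1.59 and -1.15), Ighm (-1.21 and -1.06), F11r (-0.91 and -1.43), Apoc1 (-0.87 and -1.91), Carmil1 (-0.89 and -1.03), Pdcd4 (-0.80 and -0.80) and Tmcc1 (-0.80 and -0.83) were the others. Depth moved with these values, since cells past a limit had medians of 20031 and 20238 UMIs against 10627 and 11686. With other cells of like depth, the MHC class II list was at -0.46 and -0.32. With 5 different members as well it turned to 0.58 and 0.23, and Cd74, Ighm, Serpinf1 and Tmem176b turned with it. The lowest genes under both changes were Ccl5 (-4.17 and -2.45), Gpnmb (-1.62 and -2.06), Cxcl3 (-1.59 and -1.41), Ccl24 (-2.10 and -1.38) and Il6 (-1.32 and -1.62). Ccl8 and the histone genes kept their direction under these alternatives, as the plot of named genes shows them for the main rule.

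**Figure D5:**
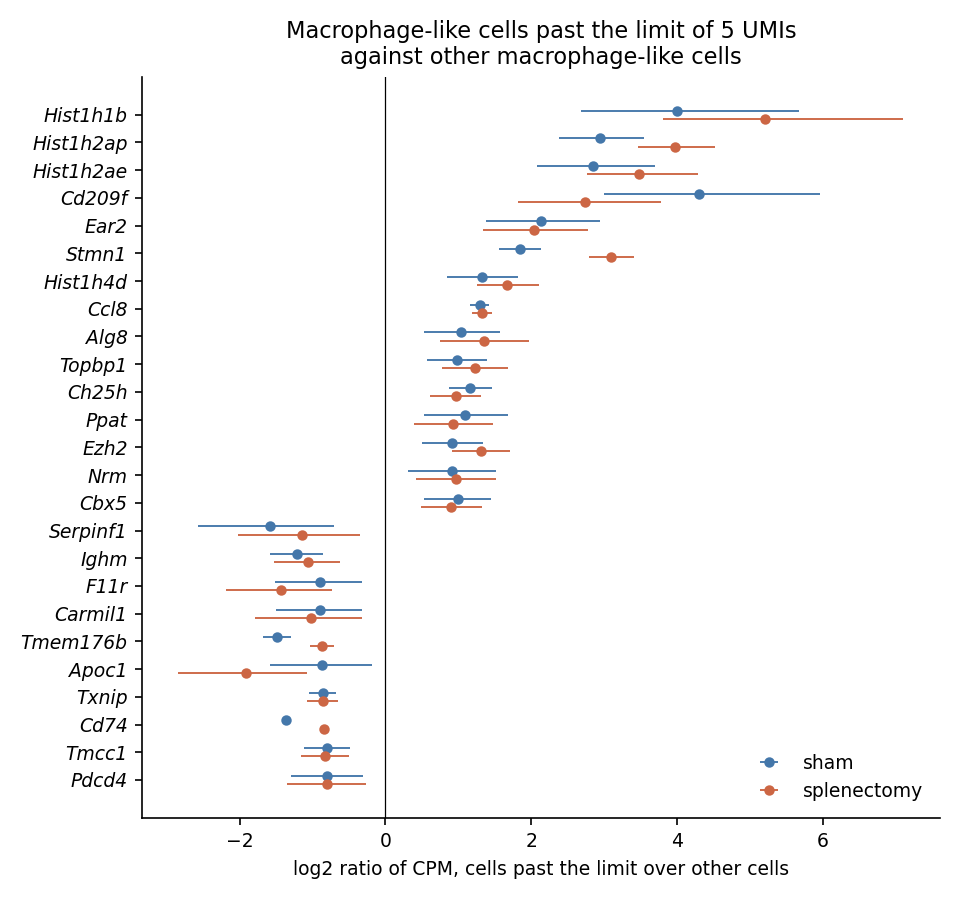
Log2 ratio of CPM in macrophage-like cells past either limit over the other macrophage-like cells, for the named genes outside the lists, with exact 95% intervals for counting error in the sham and splenectomy libraries. Hist1h1b and Cd209f lie farthest to the right, and Cd74 and the other lower genes lie to the left in both libraries.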

How the data were processed

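CD45+ cells of mouse hearts were profiled with the Chromium 3' v3 kit, per the labels' protocols, in 1 sham and 1 splenectomy library. The authors deposited UMI counts per gene and barcode, made with Cell Ranger 5.0.0 per the file headers; STAR and the build mm10 stand in the submitters' processing notes, with the annotation not given in the sources used here. Positions of genes come from GENCODE vM21. Barcodes under 200 genes or over 20% mitochondrial UMIs were left out. Doublets were scored with Scrublet (scanpy 1.11.5), and cells were removed from the top score down, at a rate of 8 per 1000 for each 1000 cells in a library (302 cells, 4.92%, and 200 cells, 4.00%; its own threshold called 150 and 102).

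A cell took the class with the highest mean marker score (log of UMIs per 10000, each marker relative to its 50 highest cells) if at least 3 markers were detected and the score was 1.25 times the next. Cells whose 2 closest classes were classical monocyte and macrophage within that ratio form the class between them. A ratio under 1.5 counts as near the edge. Members and lists were chosen with earlier results of these data known. UMIs were summed per class and library, and intervals are exact Poisson or binomial (95%). Both libraries were analysed without a test. A count of 0 was read as at most 3. Shares were also given in cells thinned to 4000 UMIs (seed 7).

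Named are members with at least 20 UMIs in the higher library, up to 8 other genes of a list at 1.5-fold, and outside the lists the 15 highest and 10 lowest by the smaller ratio of both libraries with at least 50 UMIs, with predicted genes, variable genes of immune receptors and those of haemoglobin, ribosomes and mitochondria left out. Fam64a was not analysed. Clusters for the alternative classes used 2000 variable genes without members or pathway genes, 30 components, 15 neighbours and Leiden resolution 1 (leidenalg 0.10.2). Arrays and tables were handled in numpy 2.4.6 and pandas 2.3.3, intervals in scipy 1.17.1 and plots in matplotlib 3.10.9, under python 3.11.15. The ratio of class sums and the 1.5-fold rule were tested on simulated sums with independent counting error. The limits per cell, the classes, thinning and UMIs gathered in few cells were not simulated. Alternatives were a limit of 3 or 10 UMIs, thinning, no doublet removal, up to 10% mitochondrial UMIs, classes from clusters, another scale, no minimum count, other cells no shallower than the cells past the limit and leaving out the 5 cells with most member UMIs. Added after seeing the data were 5 different members, sets without Pcna and Cenpa, and other cells of like depth (at or above the tenth percentile of cells past the limit).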

Additional observations from a re-analysis of the deposited data

Results flagged for a closer look

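The G2/M set had a median log2 ratio, splenectomy over sham, of 1.32 in macrophage-like cells and of -1.39 in classical monocyte-like cells. The opposite signs in these classes drew attention to both values, and the difference between them was not tested, since each group is 1 library. Without the 5 cells of each library with most member UMIs the values were 0.60 and 0.036.

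Among the 302 cells of the sham library that were removed as doublets, 5 were past both limits (1.66% [0.540 to 3.82]), a signal outside the cells analysed. In the splenectomy library it was 1 of 200 (0.50% [0.0127 to 2.75]), and among kept cells 0.942% and 0.895%.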

How the results depend on the processing

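Values are log2 ratios, splenectomy over sham, unless a count is named. Removing no doublets, a limit of 3 UMIs, up to 10% mitochondrial UMIs and a median-ratio scale moved none of the main results. For shares in all cells (main values -0.20 for S, 0.11 for G2/M and -0.07 for both limits), thinning gave -0.40 for S and -1.03 for both, and a limit of 10 UMIs gave 0.59 for G2/M. In macrophage-like cells the G2/M share moved from 0.77 to 1.72 with a limit of 10 (7 of 891 and 19 of 732 cells). In classical monocyte-like cells the S share moved from -0.43 to -1.51 with a limit of 10, -1.14 after thinning, -0.97 with classes from clusters, -0.88 with 5 different members and -1.19 without Pcna and Cenpa. In cDC2-like cells the S share turned from -1.46 to 0.38 after thinning. Without the 5 cells with most member UMIs the G2/M median in macrophage-like cells was 0.60. Then 6 genes were higher and 1 lower, where 4.05% of all genes were higher and 4.32% lower. In classical monocyte-like cells that step turned the G2/M median to 0.036, with 1 gene higher and 0 lower, and left 2 S set genes lower; classes from clusters gave -0.12, with 1 higher and 1 lower, and 3 S set genes lower. With no minimum count 1 S set gene was higher there and 15 G2/M set genes lower, where 9.40% of all genes were higher and 10.97% lower. Of cells past a limit against other macrophage-like cells, the MHC class II list was -0.63 with 5 different members and -0.46 with other cells of like depth in the sham library, and both together gave 0.58 (sham) and 0.23 (splenectomy) there and -0.75 and -0.90 for the lipid and repair list. Both together also turned Cd74 (0.53 and 0.28), Ighm (0.32 and 0.17), Serpinf1 (0.83 and 1.49) and Tmem176b (0.54 and 0.51), and like depth alone turned Serpinf1 in the splenectomy library (0.10). The cause was not tested for these values. No paired analysis was possible because each group is 1 library, which also leaves no replicate to leave out. In classical monocyte-like cells 8 of 21 G2/M set genes had fewer than 20 UMIs in both libraries, and in cDC2-like and neutrophil-like cells 18 of 21.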

Other observations

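Lymphoid and stromal classes gave few cells past the limits, though not always a low share. Apart from the order of classes and the plot of shares, their values belong to no comparison above. Of natural killer cell-like cells, 13 of 61 (21.3% [11.9 to 33.7]) in the sham library and 4 of 28 (14.3% [4.03 to 32.7]) in the splenectomy library were past the S limit. Past the G2/M limit were 5 of 61 (8.20% [2.72 to 18.1]) and 0 of 28, which allows a share of up to 10.7%. With 5 different members, 12.4% of natural killer cell-like cells over both libraries met the S rule and 4.49% the G2/M rule. In macrophage-like cells these shares were 10.3% and 1.66%. ILC2-like cells, innate lymphoid cells of type 2 responses, numbered 6 and 2, and 4 and 0 of them were past the S limit. T cell-like cells were past it in 3 of 59 and 6 of 69, B cell-like cells in 2 of 103 and 2 of 102, and nonclassical monocyte-like cells in 4 of 51 and 3 of 40. Endothelial cell-like cells, which the CD45 selection should remove, were past it in 9 of 70 and 6 of 60. Cells without a class were past it in 38 of 507 (7.50%) and 21 of 410 (5.12%).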
